A study of Arabidopsis thaliana with 12 samples.

Results

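The salt response of wild-type Arabidopsis thaliana (accession Col-0) was read from 6 of the 12 RNA sequencing libraries of a study on TaF5H1, a wheat gene of the lignin pathway expressed under its native promoter. The members were the 3 libraries of wild-type seedlings held for 6 h in nutrient solution, called untreated here, and the 3 of wild-type seedlings held for 6 h in 200 mM NaCl. All seedlings were 14 days old, and the labels give the tissue as leaves. Of 34218 genes in the deposited table, the 17038 with a mean of at least 1 FPKM over the 12 libraries were tested. FPKM scales each count to the exon length of its gene and to the depth of its library, so it allows levels to be compared between genes. The 6 libraries of the transgenic line entered this filter, the scaling and the estimate of the spread between replicates, and no comparison below.

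High salinity confronts a plant with low water potential first and with toxic sodium and chloride ions later. Abscisic acid (ABA) made under water deficit binds receptors that free SnRK2 protein kinases, and these activate bZIP factors that bind ABA-responsive elements, short promoter sequences with an ACGT core. Growth is held back in the same hours, and leaves under severe stress can draw on the carbon and nitrogen stored in their own chloroplasts.

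The 6 libraries held 18678493 to 21143907 counts. Salt treatment separated them along the first principal component, which took 89.4% of the variance. Salt-treated replicate 3 stood apart from the other 2 salt-treated libraries on the second component (3.39% of the variance), at -34.2 against 11.1 and 20.8. Replicates of a group differed by more than counting noise, with a chi-square of 9.88 to 28 per degree of freedom, so no library was counted as a repeat of another. The labels do not say how the replicates were grown beyond calling them biological.

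Markers of leaf mesophyll summed to 23745 to 25742 FPKM in the untreated libraries and to 6454 to 6704 FPKM under salt, and 5 of the 6 fell. In RNA from whole tissue, fewer cells of a type and less RNA per cell cannot be told apart. Of 11 root markers, 6 had no count in any of the 6 libraries, and the list summed to 1.32 to 3.4 FPKM without salt and to 7.62 to 13.3 FPKM with it, nearly all of it from BGLU23. Of 8 seed and embryo markers, 6 had no count in any library. That list summed to 0.51 to 1.69 FPKM without salt and to 2.21 to 3.67 FPKM with it. Its member FUS3 went from 0.87, 0.51 and 1.55 FPKM to 2.5, 1.74 and 2.04 FPKM. The 5 flower markers summed to 0.83, 2.58 and 7.59 FPKM in salt-treated replicates 1, 2 and 3, and to 1.87 to 3.56 FPKM without salt.

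At an adjusted p under 0.05 in edgeR's quasi-likelihood test with Benjamini-Hochberg adjustment, which is the test behind every adjusted p here, 9160 genes (53.8%) were called. Of all genes tested, 27.1% (4616 genes) rose and 26.7% (4544 genes) fell. At least a 2-fold rise was called for 14.1% and at least a 2-fold fall for 15.8%; an 8-fold rise was called for 3.05% and an 8-fold fall for 1.64%. The median log2 fold change (log2FC, salt over untreated) of all genes was -0.02. It depended on the scaling: with library totals alone the median was -0.22 and 36.8% of calls were rises, against 50.4% with the TMM factors used here. Upper-quartile factors gave a median of -0.18 and 40% rises, and limma on log2(FPKM + 1) gave -0.19 and 36.6%. Below, log2FC values carry a standard error (SE) from the fit, each group has n = 3, and per-library values are in the order of the replicates. Most genes named were picked for the size or significance of their change. Where their libraries are said to be separate, this describes the values and adds no evidence.

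**Figure D1:**
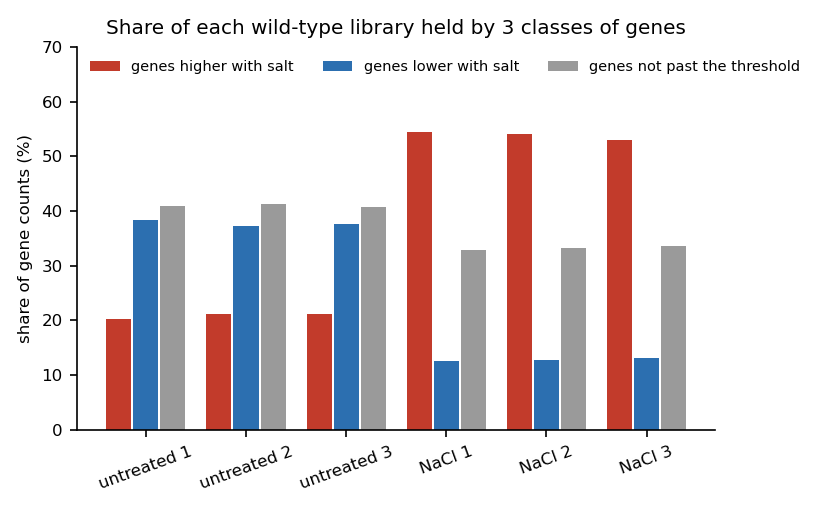
Share of all counts in each of the 6 libraries (per cent, vertical axis) held by the genes called higher under salt, those called lower and those not past the threshold. The higher genes held 20.3 to 21.1% of the counts in the untreated libraries and 53.0 to 54.4% with salt.

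The 4616 genes that rose held 20.9% ± 0.441 (SD) of the counts in the untreated libraries and 53.8% ± 0.709 in the salt-treated ones, and those that fell went from 37.8% to 12.8%, as the plot of count shares shows. These sets were chosen by their change, so the shares are a description. The 520 genes that rose at least 8-fold went from 0.803% to 13.9% of the counts. The 8 genes with the largest gains of FPKM went from 0.28% to 5.83% of all counts, and the 8 with the largest losses from 5.69% to 1.24%. The top gene of every untreated library was RBCS-1A, a small subunit of the carbon-fixing enzyme Rubisco, at 1.33 to 1.66% of counts. In every salt-treated library it was CORI3, a cystine lyase known from jasmonate responses, at 1.13 to 1.28%.

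The 8 gains were KIN2, COR15A, CORI3, ERD10, PXG3, COR47, DHAR1 and VSP2. COR15A, a chloroplast protein that guards membranes against dehydration, stood at 59.5, 50.9 and 67.8 FPKM without salt and at 6271, 6250 and 5632 FPKM with it (log2FC 6.87 ± 0.43, adjusted p = 2.3e-07). PXG3, a caleosin of lipid droplets also known as RD20, went from 59.4, 43.9 and 73.9 FPKM to 4360, 4369 and 4372 FPKM (log2FC 6.41 ± 0.32, adjusted p = 3.8e-08). DHAR1, which regenerates ascorbate, went from 449, 387 and 537 FPKM to 4724, 3744 and 3973 FPKM (log2FC 3.38 ± 0.36, adjusted p = 1.2e-05). In each of these the 3 salt-treated libraries lay far above the 3 untreated ones. The dehydrins ERD10 and COR47, which bind water and shield proteins and membranes, rose by log2FC 4.30 ± 0.22 and 4.28 ± 0.23. VSP2, a leaf storage protein, rose by 5.08 ± 0.54.

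The losses were RBCS-1A, RBCS-2B, RBCS3B, LHCB1.3, RCA, ECS1 and a pair of genes of unknown function, AT2G25510 and AT5G42530. RCA, which reactivates Rubisco, stood at 5416, 4710 and 5118 FPKM without salt and at 1146, 1209 and 1146 FPKM with it (log2FC -1.92 ± 0.49, adjusted p = 0.0059). AT5G42530 (chromosome 5, 17004738 to 17005510, TAIR10), annotated only as an uncharacterized protein, went from 5197, 4112 and 4643 FPKM to 467, 412 and 288 FPKM (log2FC -3.38 ± 0.27, adjusted p = 1.4e-06). The groups were again fully separate. RBCS3B fell by 1.85 on the log2 scale (adjusted p = 0.017), but without salt-treated replicate 1 its adjusted p was 0.058 and without replicate 3 it was 0.052. The small subunit genes are near-identical copies, and how reads that match several of them were counted is not given in the sources used here, so their single values are uncertain.

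By fitted fold, among called genes with a symbol, at least 5 FPKM in the higher group and no overlap of libraries, the 10 largest rises were LTP4, SWEET15, MAN1, NADP-ME1, MYB90, KIN1, DIR1, GASA3, NATA1 and LEA7. NATA1, which acetylates ornithine, was at 2.14, 0.99 and 1.82 FPKM without salt and at 1276, 1019 and 1041 FPKM with it (log2FC 9.59 ± 0.34, adjusted p = 1.1e-08). LEA7, a late embryogenesis abundant protein, went from 0.3, 0.28 and 0.27 FPKM to 169, 191 and 191 FPKM (log2FC 9.51 ± 0.41, adjusted p = 2.4e-08). SWEET15, MAN1, NADP-ME1, MYB90, DIR1 and GASA3 had no untreated count, so that their place in this order rests on the fit. LTP4, a lipid-transfer protein of the cell surface, went from 0.19, 0 and 0.06 FPKM to 618, 666 and 780 FPKM. Its log2FC was 13.09 ± 2.19, and 14.37 without untreated replicate 1, since it rested on a handful of untreated counts.

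By the same rule the 10 largest falls were BHLH100, EXPA8, ERF094, GASA9, KCS12, FLA9, XTH31, CYP81F2, HBI1 and PUP22. HBI1, a bHLH factor that promotes cell elongation, stood at 65.6, 74.5 and 71.4 FPKM without salt and at 1.61, 1.13 and 1.87 FPKM with it (log2FC -5.32 ± 0.21, adjusted p = 1.6e-08). KCS12, an enzyme that lengthens very-long-chain fatty acids, went from 70.5, 108 and 89.4 FPKM to 1.02, 0.62 and 1.57 FPKM (log2FC -6.20 ± 0.41, adjusted p = 3.2e-07). CYP81F2, a cytochrome P450 of indole glucosinolate synthesis, went from 19.1, 46.7 and 21.9 FPKM to 0.27, 0.86 and 0.7 FPKM (log2FC -5.38 ± 0.44). EXPA8 and FLA9, both of the cell wall, fell by 7.68 and 5.57 on the log2 scale. These depended on single libraries, with EXPA8 at -7.07 without salt-treated replicate 1 and at -9.17 without replicate 3, and FLA9 at -6.55 without replicate 3. The factor ERF094 and GASA9 had 1 to 3 counts over the salt-treated libraries, so their fitted folds (log2FC -7.45 and -6.58) moved to -10.71 without salt-treated replicate 1 and to -9.83 without replicate 2. Their count ratios were 195 (95% interval 66.3 to 947) for ERF094 and 106 (95% interval 35.9 to 515) for GASA9.

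In all, 17 genes, including the 6 already named, had no count in any untreated library and at least 1 FPKM in every salt-treated one, and 14 of the 17 passed the expression filter. SWEET15, a sucrose exporter known from ageing leaves, was at 17.7, 10.1 and 16.5 FPKM in the salt-treated libraries, which is at least 446-fold above 3 counts over the untreated group. By the same floor MAN1, annotated as a glycosyl hydrolase, was at least 364-fold higher, the cytosolic malic enzyme NADP-ME1 at least 302-fold and MYB90, which turns on anthocyanin genes, at least 283-fold. DIR1, listed as dirigent protein 1 (AT5G42510), was at least 172-fold higher and GASA3 at least 170-fold. AT3G25573, a putative uncharacterized protein without a symbol, was at least 204-fold higher. Such bounds cover counting error only.

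Another 8 genes went the other way, with no count in any salt-treated library, and 5 of them were tested. BHLH100, a regulator of iron uptake, was at 4.38, 6.86 and 4.5 FPKM without salt and at least 107-fold lower with it. ORG2, a bHLH factor of the same subgroup, was not tested and was at least 29.7-fold lower. Among genes without a symbol, the defensin-like gene AT1G13609 was at least 90.2-fold lower, AT4G34790 at least 97.3-fold, AT2G14247 at least 84.8-fold and AT5G02515 at least 62.6-fold.

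Promoters of several of these genes are shown because the responses met in them are so unequal: the window runs from 250 bases before to 50 after the annotated gene start, read 5′ to 3′ on the gene's strand from RefSeq's TAIR10.1 genome. Capitals mark matches to ACGTGNC, the ABA-responsive element, or to CACGTG, the G-box, on either strand. The first is LEA7 (chr1:19619474-19619773, plus strand), with 3 matches to ACGTGNC and 1 to CACGTG; PXG3 (chr2:14146506-14146805, minus strand) has 2 of each, 3 of them overlapping just past the gene start. KIN2 and KIN1 are neighbouring copies on chromosome 5 that code for small cold- and ABA-induced proteins (chr5:5211469-5211768 and chr5:5209467-5209766, plus strand). BHLH100, which fell, has the window chr2:17199405-17199704 on the minus strand.
LEA7: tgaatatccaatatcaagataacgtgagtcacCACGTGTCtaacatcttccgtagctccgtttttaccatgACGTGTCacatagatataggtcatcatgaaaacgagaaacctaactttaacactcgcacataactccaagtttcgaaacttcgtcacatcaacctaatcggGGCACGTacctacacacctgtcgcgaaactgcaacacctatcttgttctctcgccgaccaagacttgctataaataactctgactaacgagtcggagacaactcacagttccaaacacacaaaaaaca
PXG3: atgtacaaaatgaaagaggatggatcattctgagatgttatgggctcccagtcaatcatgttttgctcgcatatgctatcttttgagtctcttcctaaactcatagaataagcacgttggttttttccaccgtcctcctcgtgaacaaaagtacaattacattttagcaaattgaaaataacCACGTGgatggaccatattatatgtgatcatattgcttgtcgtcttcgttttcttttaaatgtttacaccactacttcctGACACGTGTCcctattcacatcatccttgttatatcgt
KIN2: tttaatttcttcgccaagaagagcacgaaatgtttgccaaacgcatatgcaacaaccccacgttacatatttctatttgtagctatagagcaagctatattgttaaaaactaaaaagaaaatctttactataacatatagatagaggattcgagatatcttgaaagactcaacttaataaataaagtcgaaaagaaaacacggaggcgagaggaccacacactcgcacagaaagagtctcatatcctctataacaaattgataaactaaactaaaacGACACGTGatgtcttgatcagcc
KIN1: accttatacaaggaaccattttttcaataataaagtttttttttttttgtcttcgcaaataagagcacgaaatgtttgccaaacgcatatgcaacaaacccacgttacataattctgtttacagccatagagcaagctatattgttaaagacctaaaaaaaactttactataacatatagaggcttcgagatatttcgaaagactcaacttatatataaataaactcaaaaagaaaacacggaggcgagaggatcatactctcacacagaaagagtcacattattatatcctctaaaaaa
BHLH100: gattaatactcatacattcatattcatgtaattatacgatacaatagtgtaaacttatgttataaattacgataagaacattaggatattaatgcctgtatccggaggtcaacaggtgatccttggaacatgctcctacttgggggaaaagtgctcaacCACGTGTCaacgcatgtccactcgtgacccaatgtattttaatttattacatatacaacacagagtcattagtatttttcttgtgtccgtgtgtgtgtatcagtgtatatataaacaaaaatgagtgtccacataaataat

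In KIN2 the single stretch in capitals lay past the gene start, and the KIN1 window held neither motif. KIN1 went from 1.29, 0.87 and 2.29 FPKM to 2261, 2292 and 2178 FPKM (log2FC 10.75 ± 0.49, adjusted p = 2.8e-08), and KIN2 from 633, 574 and 670 FPKM to 8738, 7857 and 7169 FPKM (log2FC 3.86 ± 0.24, adjusted p = 2e-07). KIN2 was thus far above KIN1 without salt and rose less, and their FPKM differed by a smaller factor with salt than without. Reads may be divided between the copies in a way the sources used here do not give. The falling BHLH100 held the same CACGTGTC run as the rising LEA7. A match is a description of the letters, not of binding.

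Over the 16911 tested genes with a promoter window, ACGTGNC occurred in 12.1%. It was present in 19.9% of windows of genes that rose at least 2-fold and in 25.8% of those that rose at least 8-fold, against 9.05% and 8.63% of genes that fell by these amounts. CACGTG, which overlaps ACGTGNC in many windows (6.42% held both), occurred in 9.28% of all windows, in 21.4% of those of 8-fold risers and in 5.04% of those of 8-fold fallers. CCGAC, the core bound by DREB factors, was found in 16.9% of all windows and in 21.6% of 8-fold risers. The W-box core TTGACN occurred in 50.7% of all windows and in 49.5% of 8-fold risers, and the heat shock core GAANNTTC in 11.5% and 13.7%. The evening element AAAATATCT was at 3.16% and 4.82%. Site II elements (TGGGCC) and telo-boxes (AAACCCTA), which are common upstream of genes for ribosomes and organelle proteins, were scarcer among genes that changed strongly: TGGGCC was in 19.9% of all windows, 9.63% of 8-fold risers and 9.71% of 8-fold fallers, and AAACCCTA in 5.58%, 2.89% and 1.8%. The I-box GATAAG, found in many light-regulated promoters, was at 15.1% of all windows and 20.9% of 8-fold fallers. No test was made on these shares.

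**Figure D2:**
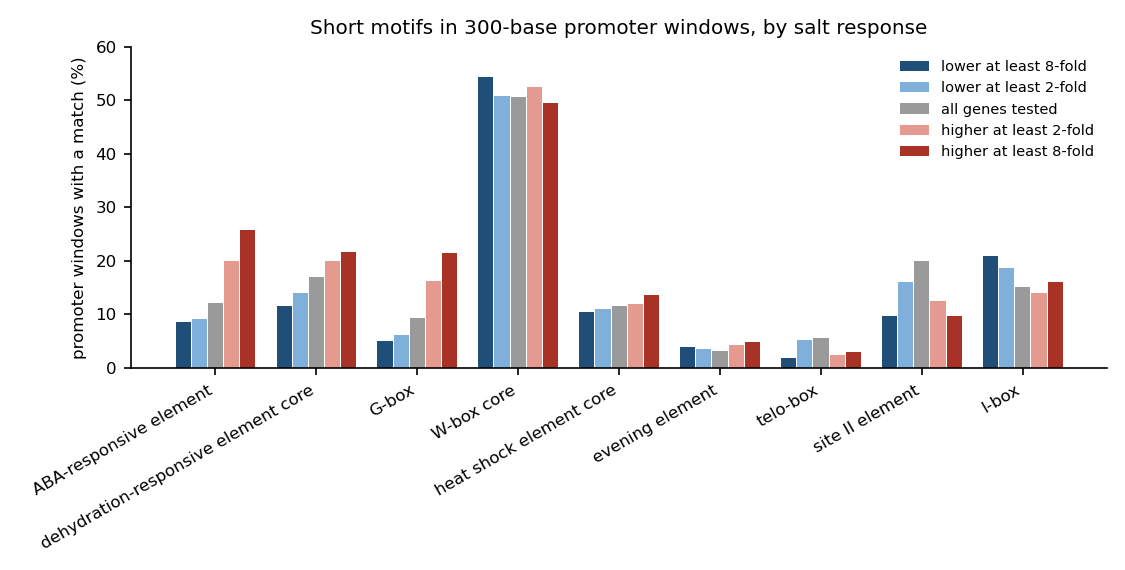
Share of promoter windows (per cent, vertical axis) with at least 1 match to each of 9 motifs on either strand, for all tested genes and for genes called up or down by at least 2-fold or 8-fold. ACGTGNC and CACGTG rise in share from all genes to 8-fold risers, while TTGACN lies between 49.5% and 54.3% in every group.

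Late embryogenesis abundant (LEA) proteins are hydrophilic proteins first known from drying seeds. Of 15 listed, 12 passed the expression filter and all 12 rose, with a median log2FC of 5.72, against 27.1% rises and a median of -0.02 for all genes. LEA6, LEA7, LEA18, LEA29 and ECP63 were below 1 FPKM on average without salt and above it with salt, so the filter favoured members that rose and the count is a description. The other 3, EM1, EM6 and M10, stayed at or below 0.67 FPKM in every library. LEA14 was already at 146, 135 and 161 FPKM and reached 2298, 2400 and 2374 FPKM (log2FC 4.20 ± 0.18, adjusted p = 2.1e-08). LEA18 went from 0.17, 0.73 and 0.31 FPKM to 22.9, 26.3 and 26.2 FPKM, a log2FC of 6.12 ± 0.31 that was 6.84 without untreated replicate 2. LEA46, also known as LEA4-5, rose by 7.40 ± 0.48, and the smallest rise was that of AT2G44060 at 1.06 ± 0.12. LEA levels under salt thus differed widely, with COR15A and LEA14 above 2000 FPKM.

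**Figure D3:**
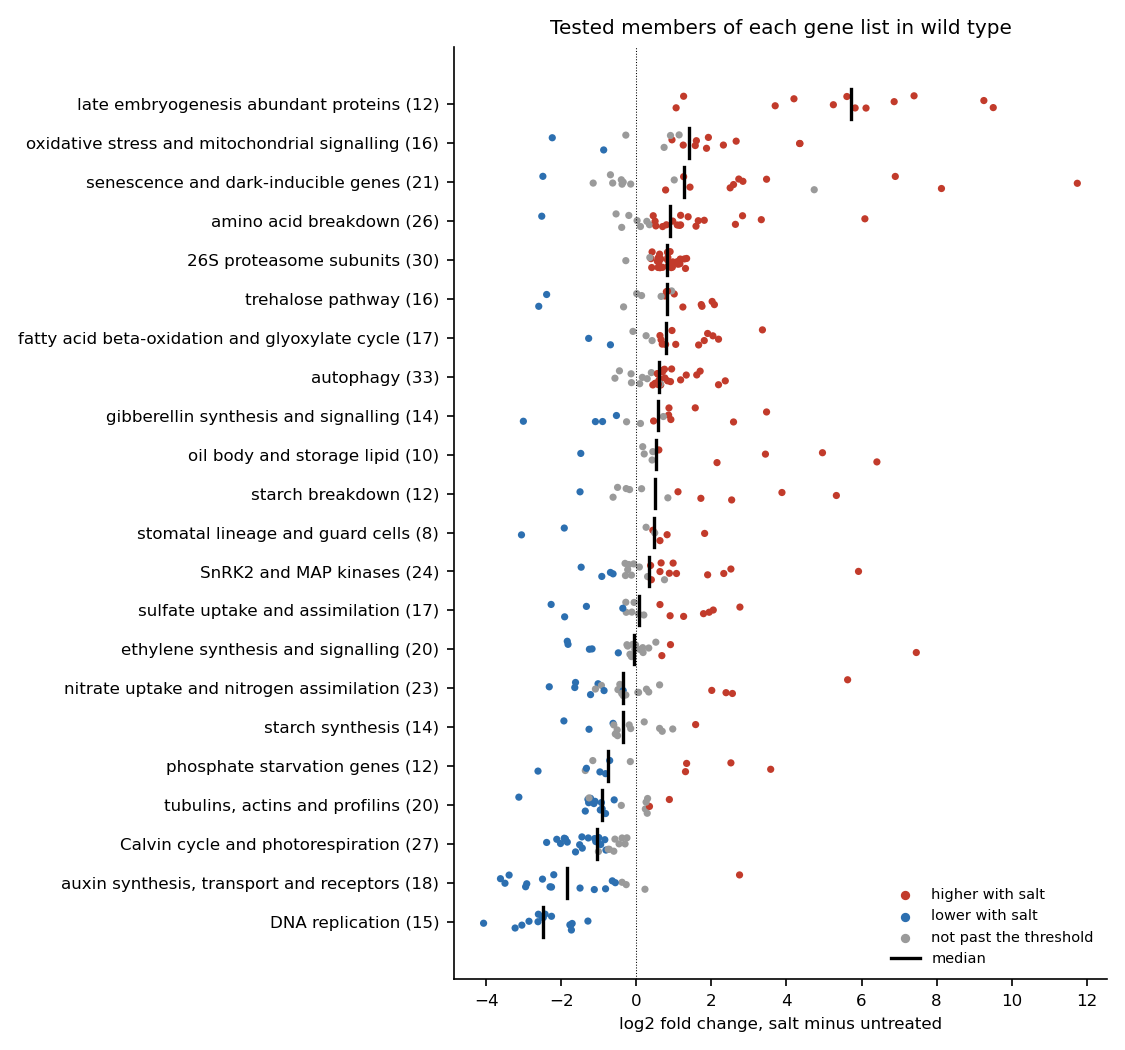
log2 fold change (salt over untreated, horizontal axis) of every tested member of the gene lists, with each list's median as a bar and colours for genes called higher, called lower or not past the threshold. LEA proteins lie furthest to the right and DNA replication furthest to the left.

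Among kinases that carry the ABA and stress signals, 11 of 24 tested rose and 4 fell (median 0.34, 28 listed). These were 45.8% and 16.7%, against 27.1% and 26.7% of all genes. With library totals 8 rose and 7 fell. MAPKKK18, an ABA-induced MAP kinase kinase kinase, stood at 1.15, 1.27 and 1.2 FPKM without salt and at 67.3, 57.2 and 66.9 FPKM with it (log2FC 5.92 ± 0.25, adjusted p = 2.4e-08). Every salt-treated library was far above every untreated one. The MAP kinases did not move together. MPK7 rose from 13.1, 13.3 and 13.4 FPKM to 42.2, 45.1 and 41.9 FPKM, while MPK1 fell by 1.47 and MPK2 by 0.69 on the log2 scale. The SnRK2 kinase SRK2G rose by 1.07 ± 0.11. MPK3, known from immune responses, fell by 0.92. The central ABA kinase SRK2E, or OST1, rose by 0.88 ± 0.15, while SRK2I at 0.30 ± 0.13 did not pass the threshold.

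PPH, PAO, SGR1 and NYC1, which act in the dismantling of chlorophyll, rose. PPH, which removes the phytol tail, stood at 33.3, 35.3 and 36.8 FPKM without salt and at 190, 178 and 183 FPKM with it (log2FC 2.59 ± 0.14, adjusted p = 7e-08). PAO, which opens the ring, went from 43.9, 43.1 and 46.2 FPKM to 276, 285 and 272 FPKM (log2FC 2.84 ± 0.18, adjusted p = 2.7e-07). SGR1, which takes out the magnesium, rose by 2.73 ± 0.18 and the chlorophyll b reductase NYC1 by 1.43 ± 0.24. The groups were separate for all 4. On the side of synthesis, 23 of 34 tested genes of the chlorophyll biosynthesis term fell and 3 rose (median -1.01), and 15 fell without salt-treated replicate 1. Over all genes 26.7% fell and 27.1% rose. CPX1 and HEME2, enzymes on the way to chlorophyll, fell by 1.21 and 1.16 on the log2 scale.

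Over all 22 senescence and dark-inducible genes, 21 were tested, 11 rose and 1 fell (median 1.26). The shares were 52.4% and 4.76%, against 27.1% and 26.7% of all genes. RNS1, a secreted ribonuclease, went from 0.67, 0.14 and 0.96 FPKM to 133, 156 and 148 FPKM (log2FC 8.13 ± 0.38, adjusted p = 3e-08, and 8.72 without untreated replicate 3). The senescence regulators NAC029 (NAP) and NAC92 (ORE1) rose by 3.47 ± 0.32 and 2.50 ± 0.26. SAG13 rose by 6.90 ± 0.52. SAG12, the protease used as the marker of late senescence, stayed at 0 FPKM without salt and at 0.15, 0.14 and 0.04 FPKM with it. Of the genes that darkness and sugar starvation induce, ASN1 had a log2FC of -0.35 ± 0.61 and was not called, DIN10 fell by 2.49 and DIN9 (PMI2) rose by 0.78 ± 0.22. The median of the list over the untreated mean was 1.50, 1.40 and 0.65 in the salt-treated libraries, lowest in replicate 3, and 1.34 when that library was left out of the fit.

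Amino acid breakdown was another process with many rises: 18 of 26 genes rose and 1 fell (median 0.89). The shares were 69.2% and 3.85%, against 27.1% and 26.7% of all genes. AT4G33150, the bifunctional enzyme that degrades lysine, stood at 2.2, 4.38 and 3.28 FPKM without salt and at 203, 188 and 191 FPKM with it (log2FC 6.09 ± 0.29, adjusted p = 3.2e-08). BCAT2, which takes the amino group off branched-chain amino acids, went from 0.4, 1 and 0.44 FPKM to 5.28, 4.51 and 6.39 FPKM (log2FC 3.33 ± 0.33). IVD, which passes electrons from their breakdown to the respiratory chain, went from 18.4, 18.8 and 18 FPKM to 43.8, 41.9 and 39.2 FPKM (log2FC 1.38 ± 0.12, adjusted p = 2.5e-06). All 3 were higher in every salt-treated library. AT1G21400, a subunit of the branched-chain keto acid dehydrogenase, rose by 2.83 ± 0.14. In tyrosine breakdown TAT7, HPD and HGO rose by 2.98 ± 0.13, 2.64 ± 0.17 and 1.65 ± 0.12.

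The single fall was GDH1 (AT5G18170), a glutamate dehydrogenase of mitochondria. It stood at 46.4, 53.2 and 53.6 FPKM without salt and at 7.37, 7.77 and 8.1 FPKM with it (log2FC -2.52 ± 0.12, adjusted p = 3e-08). Its partner GDH2 rose by 0.80 ± 0.24, so the isoenzymes moved in opposite directions.

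Genes annotated to the synthesis of valine, leucine and isoleucine went against those of their degradation. In the deposited KEGG annotation 17 of 43 degradation genes (39.5%) rose at least 2-fold, and 10 of 20 synthesis genes (50%) fell at least 2-fold, against 14.1% and 15.8% of all genes. IPMI1, an isopropylmalate isomerase subunit, went from 48.1, 51.2 and 43 FPKM to 3.33, 3.87 and 4.17 FPKM (log2FC -3.45 ± 0.32, adjusted p = 4.2e-06). IMDH2, annotated as an isopropylmalate dehydrogenase, fell by 2.36. ADC2, which turns arginine towards polyamines, rose from 50.2, 54.3 and 57.4 FPKM to 886, 841 and 825 FPKM (log2FC 4.18 ± 0.21, adjusted p = 3.9e-08). MGL, which cleaves methionine, rose by 4.25 ± 0.24.

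**Figure D4:**
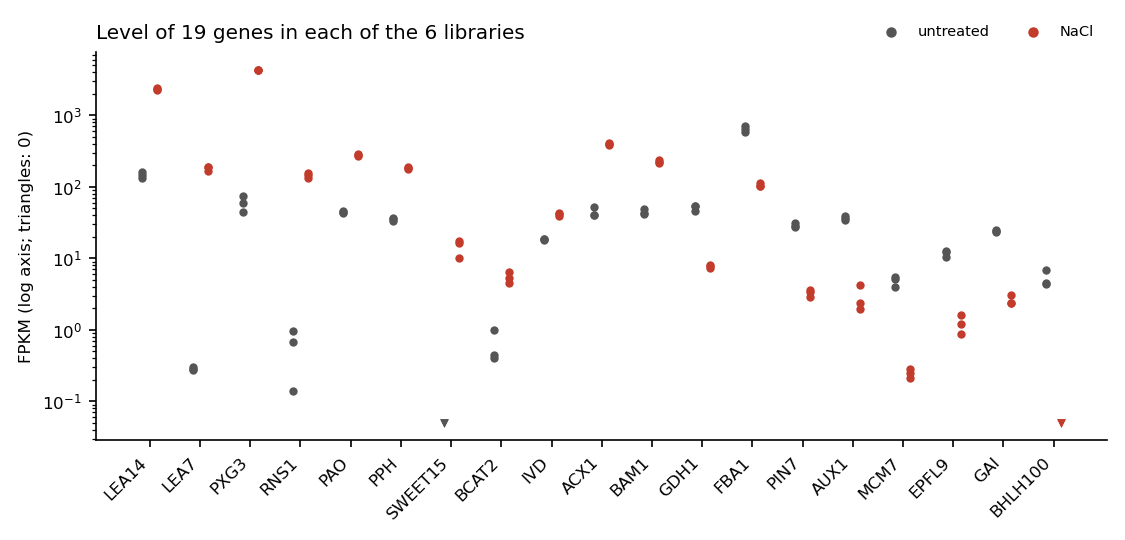
FPKM (log axis) in each of the 3 untreated and 3 salt-treated wild-type libraries for 19 genes from these groups, 1 point per library. SWEET15 has no untreated point above 0 and BHLH100 no salt-treated one, and for genes such as ACX1 and GDH1 the groups lie apart.

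Most tested genes of the cell's own degradation machinery rose, against 27.1% rises and 26.7% falls over all genes. Of 30 subunits of the 26S proteasome, the protease that destroys ubiquitin-tagged proteins, 28 rose and 0 fell (median 0.83, all between -0.28 and 1.34). PBA1, a catalytic subunit, stood at 50.6, 51.3 and 49.8 FPKM without salt and at 115, 111 and 101 FPKM with it (log2FC 1.31 ± 0.11, adjusted p = 2.5e-06). RPT3, an ATPase of the regulatory cap, rose by 1.28 ± 0.13 and the ubiquitin receptor RPN10 by 1.11 ± 0.11. RPN2A at -0.28 ± 0.12 and PBD1 at 0.36 ± 0.16 were not called. Of 33 autophagy genes, 24 rose and 0 fell (median 0.61), and 15 rose and 2 fell when libraries were scaled by their totals alone. Among the ATG8 tags that coat autophagosomes, APG8A (ATG8A) stood at 28.4, 21.1 and 24.6 FPKM without salt and at 111, 122 and 100 FPKM with it (log2FC 2.37 ± 0.22, adjusted p = 3.9e-06). ATG8H rose by 2.19 ± 0.22 and ATG18H by 1.70 ± 0.16, while ATG8C rose by 0.60 ± 0.12 and ATG8E, at 0.40 ± 0.30, was not called.

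Most tested genes of photosynthetic carbon metabolism fell, against 26.7% falls and 27.1% rises over all genes. Of 27 tested genes of the Calvin cycle and photorespiration (28 listed), 18 fell and 0 rose, with a median of -1.04 and every value between -2.39 and -0.25. FBA1, a chloroplast aldolase, stood at 704, 592 and 644 FPKM without salt and at 104, 115 and 104 FPKM with it (log2FC -2.39 ± 0.55, adjusted p = 0.0034). GAPA-2, a glyceraldehyde phosphate dehydrogenase subunit, fell by 2.02 and GGAT1, a photorespiratory aminotransferase, by 1.00. In a fit of the 6 wild-type libraries alone 27 fell. The count was 9 without untreated replicate 1 or salt-treated replicate 1, and 10 without untreated replicate 3, salt-treated replicate 2 or salt-treated replicate 3.

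Starch enzymes were listed by role, breakdown or synthesis. BAM1, a beta-amylase active under osmotic stress, stood at 41.1, 42.9 and 49.5 FPKM without salt and at 221, 239 and 216 FPKM with it (log2FC 2.54 ± 0.17, adjusted p = 4e-07). AMY1, an alpha-amylase outside the chloroplast, went from 0.63, 0.35 and 0.88 FPKM to 16.5, 33.1 and 16.2 FPKM (log2FC 5.33 ± 0.57, adjusted p = 1.3e-05). Every salt-treated library was above every untreated one. Of 12 breakdown genes 5 rose and 1, DPE1, fell (median 0.49), in the fit of wild type alone 6 rose and 3 fell, and 0 fell without salt-treated replicate 1. Of 14 synthesis genes 1 rose and 3 fell (median -0.35), and in the fit of wild type alone 4 rose and 7 fell. Rises were 41.7% of the breakdown genes and 7.14% of the synthesis genes, against 27.1% of all genes. Falls were 8.33% and 21.4%, against 26.7% of all genes, so the falls in synthesis were near that share. The difference between the roles was not tested. PGMP, the chloroplast phosphoglucomutase, fell by 1.93 and ADG2, a large subunit of ADP-glucose pyrophosphorylase, by 1.26, while the alternative large subunit APL3 rose by 1.58 ± 0.33.

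In the trehalose pathway, whose phosphorylated intermediate signals sugar status, 9 of 16 tested genes rose and 2 fell (median 0.82, 18 listed). The shares were 56.2% and 12.5%, against 27.1% and 26.7% of all genes. The phosphatases that remove the intermediate did not move as a group. TPPG rose by 2.02 ± 0.16 and TPPJ by 1.75 ± 0.12, while TPPA fell by 2.60 and TPPH by 2.39. TPPJ, with TPPG and TPS10 among the smallest adjusted p, went from 4.54, 4.89 and 4.91 FPKM to 13.4, 15.1 and 13.5 FPKM. TPS10, a member of the class without proven synthase activity, rose by 2.08 ± 0.18.

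Most tested genes of fatty acid breakdown rose, while the enzymes particular to the glyoxylate cycle were barely detected. Of 17 tested genes (19 listed) 12 rose and 2 fell (median 0.78). These were 70.6% and 11.8%, against 27.1% and 26.7% of all genes. ACX1, an acyl-CoA oxidase that also acts in jasmonate synthesis, stood at 39.8, 41 and 52.8 FPKM without salt and at 387, 402 and 407 FPKM with it (log2FC 3.36 ± 0.18, adjusted p = 6.1e-08). The peroxisomal citrate synthase CSY3 rose by 2.04 ± 0.13 and the thiolase PED1 by 1.81 ± 0.23. ACX2, which takes long chains, went from 23.9, 26.8 and 25.3 FPKM to 82.8, 81.2 and 83.2 FPKM. Those enzymes, ICL and MLS, stayed below the filter, at 0 to 0.28 FPKM in all 6 libraries. Among genes of lipid droplets, 5 of 10 tested (50%) rose and 1 (10%) fell (median 0.52, 15 listed), beside the same shares of all genes. AT1G67360, AT2G47780 and AT3G05500, which resemble rubber particle proteins, rose by 3.44 ± 0.19, 4.96 ± 0.52 and 2.15 ± 0.26. The seed forms OLEO1, PXG1 and PXG2 had no count in any library.

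Mineral nutrition gave no common direction. Of 23 tested genes for nitrate uptake and nitrogen assimilation (26 listed), 4 rose and 7 fell (median -0.35). These were 17.4% and 30.4%, against 27.1% and 26.7% of all genes. In the fit of wild type alone 7 rose and 13 fell, and without salt-treated replicate 3 the count of falls was 4. NPF2.13, which moves nitrate out of old leaves, stood at 61.5, 63 and 67 FPKM without salt and at 277, 288 and 309 FPKM with it (log2FC 2.39 ± 0.16, adjusted p = 3.1e-07). NPF7.3, which loads nitrate into the xylem, rose by 2.56 ± 0.24, and GLT1, a glutamate synthase, fell by 2.32. For sulfate, 7 of 17 tested genes rose and 4 fell (18 listed), with a median of 0.06 that turned to -0.14 with library totals, -0.09 with upper-quartile factors and -0.14 with limma. SULTR4;1, an exporter from the vacuole, rose by 1.94 ± 0.19, and the root-type importer SULTR1;2 fell by 1.91. Of 12 tested phosphate starvation genes (14 listed) 4 rose and 5 fell (median -0.76). These were 33.3% and 41.7%, and the sulfate rises and falls were 41.2% and 23.5%, beside the same shares of all genes. The acid phosphatase PAP17 rose by 3.58 ± 0.28, while PHO1-H1, a phosphate exporter, fell by 2.62 and SQD2, which makes sulfolipid, by 1.33.

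Growth hormones are treated next, beginning with auxin, where falls dominated. Of 18 tested genes for its synthesis, transport and receptors (22 listed) 14 fell and 1 rose, with a median of -1.85. The shares were 77.8% and 5.56%, against 26.7% and 27.1% of all genes. The exporter PIN7 stood at 28.7, 31.2 and 27.4 FPKM without salt and at 2.91, 3.34 and 3.56 FPKM with it (log2FC -2.95 ± 0.28, adjusted p = 5.8e-06). The importer AUX1 went from 38.6, 36.6 and 34 FPKM to 2.34, 1.98 and 4.18 FPKM (log2FC -3.50 ± 0.38, adjusted p = 1.6e-05). Neither overlapped between the groups. The receptor AFB2 fell by 1.12 and TAA1, an enzyme of auxin synthesis, by 2.92. PILS5, an auxin carrier of the endoplasmic reticulum, rose by 2.75 ± 0.33. The median over the untreated mean was -2.00, -2.23 and -1.24 in the 3 salt-treated libraries, smallest in replicate 3, in which the flower markers summed to 7.59 FPKM. The part of those markers in this difference was not tested.

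Gibberellin genes moved in several directions. Of 25 listed 14 were tested, and 7 rose and 4 fell (median 0.59). These were 50% and 28.6%, against 27.1% and 26.7% of all genes. The count of falls was 2 when any 1 library other than salt-treated replicate 3 was left out. GA2OX6, which inactivates gibberellins, stood at 13.9, 21.8 and 14.5 FPKM without salt and at 152, 172 and 161 FPKM with it (log2FC 3.47 ± 0.20, adjusted p = 1.1e-07). GAI, a DELLA protein that restrains growth until gibberellin removes it, went from 24.4, 23.1 and 25.1 FPKM to 2.4, 2.39 and 3.08 FPKM (log2FC -3.01 ± 0.23, adjusted p = 1.1e-06). No library of one group reached the other. The DELLA genes RGA and RGL1 rose by 0.46 ± 0.12 and 0.86 ± 0.20. The receptor GID1B rose by 2.59 ± 0.19 and GID2, the F-box protein that marks DELLA proteins for destruction, by 1.57 ± 0.13.

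For ethylene, 3 of 20 tested genes rose and 5 fell (median -0.07, 24 listed). These were 15% and 25%, against 27.1% and 26.7% of all genes. The count of falls was 3 without untreated replicate 2, salt-treated replicate 1 or salt-treated replicate 2. ACS2, an enzyme of the committed step, went from 0, 0.12 and 0.14 FPKM to 12.1, 15.3 and 15.6 FPKM (log2FC 7.46 ± 0.43, adjusted p = 1.3e-07). The related factors EIN3 and EIL1 moved apart, by 0.68 ± 0.14 and -1.25 ± 0.19. In the brassinosteroid response term, 11 of 25 tested genes (44%) fell at least 2-fold and 0 rose, against 15.8% and 14.1% of all genes. Falls of any size numbered 16, and 11 to 16 with 1 library left out. The term's median was -0.97, and -0.99 to -0.61 in those fits. Among the genes that fell were the synthesis enzyme CYP90B1 (log2FC -1.61 ± 0.17) and the inactivating enzyme CYP734A1 (-3.27 ± 0.30).

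DNA replication genes fell without exception among those tested. All 15 tested of 18 listed fell, from -4.07 to -1.29 on the log2 scale (median -2.48), against 26.7% of all genes. MCM7, a subunit of the replicative helicase, stood at 5.18, 3.99 and 5.42 FPKM without salt and at 0.25, 0.21 and 0.28 FPKM with it (log2FC -4.07 ± 0.52, adjusted p = 5.5e-05). MCM5 fell by 2.61 and PCNA2, the sliding clamp, by 1.71. These genes were low throughout, at 28.5 FPKM or less, so they passed the filter mainly on their untreated levels. Their medians in the salt-treated libraries were -2.41, -2.29 and -1.89.

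Of 20 tested tubulins, actins and profilins (21 listed) 12 fell and 2 rose (median -0.92). These were 60% and 10%, against 26.7% and 27.1% of all genes. ACT2, often used as a reference gene, stood at 392, 393 and 393 FPKM without salt and at 157, 157 and 157 FPKM with it (log2FC -1.13 ± 0.13, adjusted p = 2e-05). It was nearly constant within each group. The actins ACT7 and ACT8 had log2FC of 0.29 ± 0.12 and 0.26 ± 0.15 and were not called. TUBB5 fell by 3.13, the largest fall of the list, while TUBB9 rose by 0.35 ± 0.12 and PRO1 by 0.88 ± 0.15. Tubulin copies share long stretches of sequence, which leaves their single values uncertain.

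In the stomatal lineage only 8 of 16 genes were expressed enough to test, and 4 rose and 2 fell (median 0.46). These were 50% and 25%, against 27.1% and 26.7% of all genes. EPFL9, the mesophyll signal that promotes stomata, went from 10.6, 12.7 and 12.1 FPKM to 0.88, 1.2 and 1.63 FPKM (log2FC -3.06 ± 0.39, adjusted p = 5.6e-05). MYB60, a guard cell factor linked to opening, fell by 1.92, and KAT2, a potassium channel of guard cells (AT4G18290), rose by 1.82 ± 0.26. With library totals 2 genes rose.

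Oxidative stress and mitochondrial signalling closed the lists: 10 of 16 tested genes rose and 2 fell (median 1.41, 18 listed). The shares were 62.5% and 12.5%, against 27.1% and 26.7% of all genes. The count of falls was 0 without untreated replicate 2, salt-treated replicate 1 or salt-treated replicate 3, and 1 without salt-treated replicate 2. ALDH7B4, which detoxifies aldehydes, stood at 22.9, 24.7 and 25.4 FPKM without salt and at 432, 424 and 449 FPKM with it (log2FC 4.36 ± 0.17, adjusted p = 1.6e-08). The alternative oxidase AOX1A rose by 1.87 ± 0.14, the external dehydrogenase NDB2 by 2.32 ± 0.20 and AT2G21640, a marker of oxidative stress, by 2.66 ± 0.17. The zinc finger gene ZAT10 was not called (log2FC 0.91 ± 0.46), and its untreated libraries were uneven, at 67.2, 288 and 99.4 FPKM.

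Protein families, taken from the deposited descriptions after their values had been seen, gave some of the most even patterns. Over all genes tested, 26.7% fell and 27.1% rose. Of 274 tested genes for pentatricopeptide repeat (PPR) proteins, which edit and process RNA in chloroplasts and mitochondria, 155 (56.6%) fell and 8 rose. The median log2FC was -0.70, with quartiles of -1.13 and -0.29, and the median FPKM went from 3 to 1.75. PCMP-H57 stood at 6.08, 5.43 and 4.67 FPKM without salt and at 0.91, 0.79 and 1.03 FPKM with it (log2FC -2.37 ± 0.18, adjusted p = 1.1e-06). AT1G07590 went against the family, from 165, 147 and 135 FPKM to 755, 691 and 629 FPKM (log2FC 2.42 ± 0.22, adjusted p = 3.8e-06). It was also far more abundant than the typical member. Site II elements were in 30.3% of PPR promoter windows and telo-boxes in 11.7%, against 19.9% and 5.58% of all windows. The count of falls was 104 to 125 with any 1 library left out, and with a filter of 5 FPKM 44 genes fell, most members being too low for it.

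**Figure D5:**
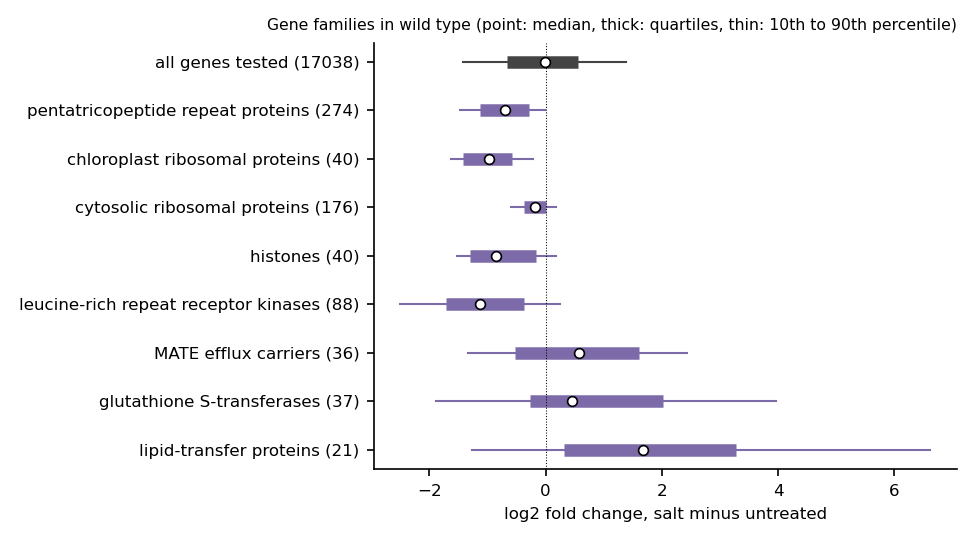
log2 fold change (salt over untreated, horizontal axis) of all tested genes and of 8 protein families, drawn as the median, the quartiles (box) and the 10th to 90th percentile (line). PPR proteins, chloroplast ribosomal proteins and receptor kinases lie left of zero, and lipid-transfer proteins to the right.

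Ribosomal protein genes are given by compartment. Of 40 tested chloroplast ribosomal protein genes 23 fell and 0 rose, with a median of -0.97 and a median FPKM of 166 without salt and 61.3 with it. RPS10 went from 133, 100 and 120 FPKM to 37.3, 36.1 and 37.5 FPKM (log2FC -1.47 ± 0.25, adjusted p = 0.00038). The count of falls was 14 or 15 when any 1 library other than untreated replicate 2 was left out. Of 176 cytosolic ribosomal protein genes 44 fell and 3 rose, with a median of -0.19, against 26.7% falls and a median of -0.02 over all genes. The falls were thus 25% of the family, near the share of all genes. The rises were 1.7% of the family, far below the 27.1% of all genes. RPS7C fell by 0.86. The count of cytosolic falls was 87 with library totals, 72 in the fit of wild type alone, 22 without untreated replicate 1, 29 without untreated replicate 3, 21 without salt-treated replicate 2 and 25 without salt-treated replicate 3. The difference between the ribosomes was not tested.

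Of 88 leucine-rich repeat receptor kinases, which sense peptides and pathogens at the cell surface, 59 (67%) fell and 1 rose (median -1.13). AT5G63410 stood at 32.4, 31.8 and 31.9 FPKM without salt and at 5.86, 5.82 and 7.15 FPKM with it (log2FC -2.15 ± 0.11, adjusted p = 5.8e-08). AT1G56120 fell by 3.90. Of 40 histone genes, many of them near-identical copies, 25 (62.5%) fell and 2 (5%) rose (median -0.85). Beside both families, 26.7% of all genes fell and 27.1% rose.

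Families that handle toxic compounds and surface lipids leaned upwards with wide spreads. Of 21 lipid-transfer proteins 13 rose and 3 fell (median 1.67). These were 61.9% and 14.3%, against 27.1% and 26.7% of all genes. Members such as AT4G22470, at 0.117 FPKM on average without salt and 2.56 FPKM with it, crossed 1 FPKM only under salt. The filter thus favoured members that rose, and the count is a description. LTP3, the neighbour of LTP4, went from 1.8, 1.41 and 2.4 FPKM to 992, 1094 and 1000 FPKM (log2FC 9.29 ± 0.86, adjusted p = 4.3e-06). Of 36 MATE efflux carriers 18 rose and 8 fell (median 0.57), and of 37 glutathione S-transferases 16 rose and 7 fell (median 0.45). Rises were thus 50% and 43.2% of these families, and falls 22.2% and 18.9%. GSTU17 rose from 5.52, 3.42 and 4.49 FPKM to 126, 131 and 125 FPKM (log2FC 5.03 ± 0.19, adjusted p = 1.4e-08), while GSTU27 fell from 76.7, 63.9 and 74.3 FPKM to 6.68, 6.24 and 6.6 FPKM (log2FC -3.26 ± 0.14, adjusted p = 2.7e-08). Both were picked for the smallest p in the family, so the separation of their groups, in opposite directions, is a description.

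Of the tested genes, 13663 carried a Gene Ontology process term of any size. Among the 310 terms with 20 to 500 tested genes, lignin synthesis had the largest share of 2-fold rises. This term had 18 of 42 genes (42.9%), against 14.1% of all genes. Its CAD5, an alcohol dehydrogenase of monolignol synthesis, went from 12.1, 17.2 and 14.3 FPKM to 463, 487 and 470 FPKM (log2FC 5.22 ± 0.18, adjusted p = 1e-08). The cellular heat response followed with 22 of 52 (42.3%), then toxin catabolism with 13 of 32 (40.6%) and water deprivation with 107 of 267 (40.1%). In lignin synthesis, the heat response, toxin catabolism and water deprivation 4.76%, 3.85%, 18.8% and 9.74% fell at least 2-fold, against 15.8% of all genes. In the water deprivation term AIRP1, a RING ubiquitin ligase of ABA signalling, rose by 4.47 ± 0.14 and the dehydrin XERO2 by 8.10 ± 0.27. Lipid transport had 20 of 56 (35.7%) rising and 14.3% falling at least 2-fold. It included the membrane-tethering proteins NTMC2TYPE6.2 (3.20 ± 0.14) and NTMC2TYPE5.1 (2.59 ± 0.15). Falls of at least 2-fold were 15.8% over all genes. Their largest share was in the term labelled transmembrane receptor protein tyrosine kinase signalling, with 47 of 87 genes (54%). It shares members with the leucine-rich repeat receptor kinases above, among them AT5G63410 and AT1G68400. Polar auxin transport followed with 23 of 43 (53.5%). In this auxin term ACL5, a thermospermine synthase of xylem development, went from 21.9, 16.8 and 14 FPKM to 0.74, 0.89 and 2.15 FPKM (log2FC -3.62 ± 0.35, adjusted p = 5.9e-06). The growth regulation term, at 13 of 31 (41.9%), held WAG1, a kinase that acts on auxin carriers (log2FC -4.16 ± 0.49).

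Genes with few exons changed by large folds more often, in both directions. Of 2291 single-exon genes 19.1% rose and 21.4% fell at least 2-fold, and 5.46% rose and 3.36% fell at least 8-fold. The 2-fold and 8-fold rises and the 8-fold falls went down with each class of more exons, to 8.43%, 1.09% and 0.707% among 3394 genes with 10 exons or more. In that last class 14.1% fell at least 2-fold, against 13.9% with 6 to 9 exons. Exon length moved with exon number: its median was 1382 bases for single-exon genes and 2434 bases in the last class. Level did not move steadily, with a median FPKM of 8.48, 10.8, 13, 12.8 and 11.1 from the fewest exons to the most. The part of exon length and level in this gradient was not tested.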

How the data were processed

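Messenger RNA was sequenced in 12 libraries, of which the 6 of wild type are described. Per the submitters' processing notes, the tools were HISAT2 2.0.1, cutadapt 1.9.1 and bcl2fastq 2.17.1.14, with the build TAIR10. How reads were counted, with or without strand, and what became of reads matching several genes is not given in the sources used here, so near-identical copies and overlapping antisense genes are uncertain. The authors deposited whole-number counts per gene, not normalized, and FPKM values, which divide counts by exon length and library total. Genes were tested if their FPKM averaged at least 1 over the 12 libraries.

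From the deposited counts, edgeR's quasi-likelihood test was run in 1 model with a mean per group (edgeR 4.0.16, R 4.3.3, TMM factors), with Benjamini-Hochberg adjustment over 17038 genes and calls under 0.05. The steps were tested on simulated data with few changed genes and as many rises as falls. That setting cannot check the scaling in data where 53.8% of genes are called. The standard error is the size of the log2 fold change over the root of F. P-values measure the spread between these libraries. Where a group had no count, the fold is a bound against 3 counts over that group; with 1 to 3 counts it is a ratio with a 95% binomial interval. Alternatives were other scalings and filters, DESeq2 1.42.0, limma 3.58.1 on log2(FPKM + 1) and log2(FPKM + 0.1), wild type alone, a replicate block and each library left out.

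The gene lists, the members and the motifs were chosen with earlier results of these data known. Genes were named by rule: among called genes that have a symbol, the 10 largest rises and 10 largest falls with at least 5 FPKM in the higher group and no overlap of libraries; the 8 largest gains and losses of mean FPKM; per list, the 3 most significant calls; the 2 smallest in each term taken; and the 5 most abundant genes absent from a condition. The terms taken were the 8 with the largest share called at least 2-fold in each direction, passing over a term that shared most of its called genes with one already taken. KEGG pathways, protein families and further list members were chosen after their values were seen. Promoter windows were cut from RefSeq's TAIR10.1 genome, in place of a promoter table that had been planned. Of 32546 nuclear loci in both annotations, 32530 had the same start and end.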

Additional observations from a re-analysis of the deposited data

How the results depend on the processing

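With the 17038 genes tested, 4616 rose and 4544 fell, and the counts stayed within 1.5 times of these under every scaling, filter and test run: 5612 and 5759 with wild type alone, 4743 and 4859 with DESeq2. The share of rises, 50.4%, and the median log2 fold change of all genes, -0.02, moved with the scaling: 36.8% and -0.22 with library totals, 40% and -0.18 with upper-quartile factors, 36.6% and -0.19 with limma on log2(FPKM + 1), and 37.3% and -0.22 with limma on log2(FPKM + 0.1). With a filter of 5 FPKM, 1708 genes fell at least 2-fold, against 2689, among 12545 tested. Leaving out 1 library gave 4149 to 4357 rises and 3559 to 3895 falls, 2330 to 2450 rises and 2377 to 2536 falls of at least 2-fold, 51.6 to 53.9% rises and a median of -0.01 to 0.01. The replicate numbers were not taken as pairs, since deviations of same-numbered libraries correlated at 0.0121, 0.0941 and -0.0666; with the replicate number as a block 4504 genes rose and 4429 fell. Signs turned in the sulfate list (median 0.06, then -0.14, -0.09, -0.14 and -0.14 with library totals, upper-quartile factors and both limma fits), in the gibberellin list without a filter (-0.00 for 0.59, as genes near 0 entered) and for SEP3, not called (0.32, then -0.04 and -0.18 with limma, and -0.36 to 0.79 with 1 library left out, lowest without salt-treated replicate 3). The cause was not tested. Fits on log2(FPKM + 1) understate the folds of low genes. The 3 libraries per group and their depth limit what can be said of genes below the filter.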

Other observations

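Among untreated libraries, replicate 2 was the highest for several fast-responding stress genes, which were picked after their values were seen. ZAT12, a zinc finger gene induced by many stresses, stood at 23.7, 117 and 36.8 FPKM without salt and at 96.6, 133 and 108 FPKM with it. ZAT6 stood at 13.7, 73.4 and 19 FPKM without salt and at 111, 132 and 105 FPKM with it. ACS6, an ethylene synthesis gene known for wound induction, stood at 34.3, 123 and 31.6 FPKM without salt and at 47.7, 79.4 and 57.6 FPKM with it. ZAT11 stood at 1.08, 10.5 and 2.02 FPKM and WRKY53 at 52.9, 105 and 59.3 FPKM without salt. With salt WRKY53 stood at 37.2, 65.6 and 39.6 FPKM. Replicate 2 was thus the highest in the salt-treated group as well for ZAT12, ZAT6, ACS6 and WRKY53. Whether libraries with this replicate number share a source of this difference was not tested. Without untreated replicate 2, 13 of the 16 oxidative stress genes tested rose, against 10 with it and 8 to 10 when any other single library was left out, and the list's median was 1.79 against 1.41.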
